A study of Mus musculus with 12 samples.

Results

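The circadian clock genes described here are Per1, Per2, Per3, Arntl, Clock, Nr1d1, Nr1d2, Dbp, Tef and Ciart, which were chosen by symbol and make up 10 of the 19775 genes in the deposited table of brain RNA levels. All 10 were present in the table, and all 10 passed the filter of a mean of at least 10 normalized counts. RNA-seq was performed on brains, labelled whole brain, of 12 male C57BL/6N mice at about postnatal day 120. There were 4 mice of each genotype: wild type (WT), Slc6a20a+/-, called HT, and Slc6a20a-/-, called HM. Slc6a20a encodes a proline and glycine transporter, and the mutant alleles lack exon 3. All genotypes came from crosses between heterozygous parents. The mice were kept on a 12-h light and 12-h dark cycle, and the hour at which each brain was taken is not given in the sources used here. It was asked whether the clock genes differed between the genotypes, and which of them rose and fell together, or in opposite directions, from mouse to mouse within a genotype.

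The molecular clock is a loop of transcription and repression that runs in nearly every cell with a period of about a day. ARNTL (also called BMAL1) and CLOCK bind as a pair to E-box sequences and switch on the Per genes, Ciart, Nr1d1, Nr1d2, Dbp and Tef, and the PER and CIART proteins then repress the pair. The REV-ERB receptors encoded by Nr1d1 and Nr1d2 repress Arntl through RORE sequences, so that Arntl RNA peaks at the opposite time of day from Nr1d1 and Dbp, while DBP and TEF carry the rhythm on to further genes through D-box sequences.

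These sequence elements were searched in the promoters of the members, which are shown here because they are where the genes described below meet the proteins that other members encode. The RefSeq windows (GRCm38.p6) run from 250 bases before to 50 bases after an annotated transcription start, and 9 of the 10 members had a window, 14 windows in all. None was held for Per2. Both strands were searched for the E-box (CACGTG), the E-prime-box (CACGTT), 2 forms of the D-box (TTATGTAA and TTACGTAA) and 2 forms of the RORE, and no match overlapped another in the windows shown. A match was found in 6 members, and in the sequences below it is written in capitals. Where a member had more than 1 window, the window with the most matches is shown. Per1 and Arntl had 2 windows each, of which 1 held a match, and Tef had 2, of which 2 did. The Per1 window shown lies inside the gene, which starts at base 69095217. The window of Per1 lies at chr11:69098699-69098998 on the plus strand, that of Per3 at chr4:151044616-151044915 on the minus strand, that of Arntl at chr7:113207261-113207560 on the plus strand, that of Nr1d1 at chr11:98775328-98775627 on the minus strand, that of Tef at chr15:81802423-81802722 on the plus strand and that of Ciart at chr3:95882179-95882478 on the minus strand.
Per1: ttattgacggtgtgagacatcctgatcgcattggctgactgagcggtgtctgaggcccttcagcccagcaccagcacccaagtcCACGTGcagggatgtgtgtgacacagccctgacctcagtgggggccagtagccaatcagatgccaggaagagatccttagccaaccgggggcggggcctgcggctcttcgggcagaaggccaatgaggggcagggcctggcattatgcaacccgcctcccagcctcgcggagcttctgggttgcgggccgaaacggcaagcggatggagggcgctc
Ciart: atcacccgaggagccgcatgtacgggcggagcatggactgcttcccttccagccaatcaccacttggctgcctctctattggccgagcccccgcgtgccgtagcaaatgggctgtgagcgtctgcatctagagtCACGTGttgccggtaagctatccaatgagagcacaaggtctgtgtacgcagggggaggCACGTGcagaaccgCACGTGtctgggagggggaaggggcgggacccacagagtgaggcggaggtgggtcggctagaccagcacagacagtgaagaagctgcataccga
Tef: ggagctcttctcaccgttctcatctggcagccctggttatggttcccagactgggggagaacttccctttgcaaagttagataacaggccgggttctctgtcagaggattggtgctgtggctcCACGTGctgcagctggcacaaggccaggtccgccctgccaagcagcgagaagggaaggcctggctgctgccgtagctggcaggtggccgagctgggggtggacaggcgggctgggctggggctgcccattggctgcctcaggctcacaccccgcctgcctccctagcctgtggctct
Nr1d1: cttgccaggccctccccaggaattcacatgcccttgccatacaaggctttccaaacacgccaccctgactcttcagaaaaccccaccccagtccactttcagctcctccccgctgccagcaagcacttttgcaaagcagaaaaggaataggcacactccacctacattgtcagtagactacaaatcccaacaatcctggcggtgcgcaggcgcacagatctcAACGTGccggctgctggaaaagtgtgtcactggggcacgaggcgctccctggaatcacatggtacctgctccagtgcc
Arntl: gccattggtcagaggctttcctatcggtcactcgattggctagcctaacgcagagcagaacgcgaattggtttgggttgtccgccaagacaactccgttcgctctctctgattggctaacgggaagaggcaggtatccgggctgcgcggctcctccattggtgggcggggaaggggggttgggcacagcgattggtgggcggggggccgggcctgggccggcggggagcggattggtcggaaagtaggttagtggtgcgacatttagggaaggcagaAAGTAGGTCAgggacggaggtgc
Per3: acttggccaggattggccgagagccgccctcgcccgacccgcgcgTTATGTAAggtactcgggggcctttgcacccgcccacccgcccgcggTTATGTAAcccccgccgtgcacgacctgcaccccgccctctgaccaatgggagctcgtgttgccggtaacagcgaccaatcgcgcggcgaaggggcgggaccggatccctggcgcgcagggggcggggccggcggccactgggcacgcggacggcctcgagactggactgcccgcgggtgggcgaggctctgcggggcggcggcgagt
Bases were counted from the start site of the window shown. The E-box of Per1 began at base -166 and that of Tef at base -127, and Ciart held 3 E-boxes, at bases -116, -58 and -44. Nr1d1 held the E-prime-box on the opposite strand at base -28. The RORE of Arntl began at base 28 after the start, and Per3 held 2 D-boxes, at bases -205 and -158. The E-box was present in 7.15% of all 32851 windows of the same length, the E-prime-box in 4.68%, the D-box form of Per3 in 0.938% and the RORE form of Arntl in 0.219%. The other D-box form and the other RORE form, present in 0.119% and 0.216% of windows, were found in no member. A match describes the letters in the window and does not show binding.

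The values are normalized counts, which the authors obtained by dividing the estimated reads of each gene by the size factor of its library. Their sum was between 33284951 and 33748623 per mouse, and because it has already been equalized it does not show the depth. Slc6a20a, the targeted gene, stood at 679.3 ± 70.1 (SD, n = 4) in WT mice, at 345.0 ± 29.1 in HT mice and at 64.5 ± 9.9 in HM mice, in the order of the labels. Markers of neurons, astrocytes and oligodendrocytes were abundant in every mouse. The Purkinje cell gene Pcp2 had between 5.5 and 26.4 and the granule cell gene Cbln3 between 12.1 and 24.5 normalized counts. Both, which define cell types of the cerebellum, were near 0 in tissue labelled whole brain. Of the other listed cerebellar markers, Barhl1 was also low (19.5 to 59.1). Higher ones were Car8 (235.3 to 310.9), Zic2 (425.5 to 609.3) and Cbln1 (551.6 to 696.5). Pvalb (1074.0 to 1614.5), Zic1 (1592.5 to 1923.7) and Calb1 (3328.3 to 4164.7) were higher still. One library stood apart in its trend with transcript length: across 17992 genes, the centred level of WT replicate 1 had a correlation of -0.208 with log2 length, against -0.053 to 0.092 in the other 11 mice. In brain tissue, fewer cells of a type and less RNA per cell cannot be told apart.

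All clock genes were expressed well above the filter in every mouse. Levels of different genes were compared per kilobase of their longest transcript. Tef, a PAR-domain transcription factor, was the most abundant at 3196.5 ± 131.9 (SD, n = 12) normalized counts per kilobase, followed by Dbp, the related factor that binds the same sites, at 1480.2 ± 107.2. Nr1d1 had 1182.8 ± 76.7, Nr1d2 931.9 ± 40.3, Per1 795.7 ± 39.6 and Per3 448.6 ± 20.8 normalized counts per kilobase. These neighbours, and Per3 and Clock, did not overlap in any of the 12 mice. Clock, at 363.0 ± 19.0, Per2, at 333.1 ± 31.1, Arntl, at 299.5 ± 16.5, and Ciart, at 255.2 ± 26.5 normalized counts per kilobase, formed the low end of the order, where each neighbouring pair overlapped between mice. Clock was higher than Per2 in 9 of 12 mice, Per2 higher than Arntl in 10 and Arntl higher than Ciart in 11.

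The kit named in the labels, the TruSeq RNA kit v2, does not mark the strand of a read, and some exons overlap a gene on the opposite strand. This applied to 8.5% of the exon bases of Nr1d1, which overlap Thra (a mean of 21956.5 normalized counts), and to 18.0% of those of Dbp, which overlap Sphk2 (966.7). For Tef the overlap with Gm17597 (34.6) was 2.5%, and for Arntl that with Gm45355 was 0.4%. The levels of Nr1d1 and Dbp are therefore uncertain, and how the reads were divided was not tested.

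Of the activators of the loop, the highest level was 1.2 times the lowest for Arntl and 1.22 times for Clock. Arntl had 825.8, 920.0, 910.0 and 871.8 normalized counts in WT replicates 1 to 4, 868.1, 878.8, 841.5 and 891.9 in HT replicates 1 to 4, and 991.4, 939.8, 926.4 and 829.1 in HM replicates 1 to 4. The highest and the second lowest level were thus both in HM mice, and the 3 genotypes overlapped. Clock, which encodes the partner of ARNTL, had 3072.3, 3580.1, 3576.4 and 3417.4 normalized counts in the WT mice, 3653.8, 3758.2, 3439.0 and 3602.3 in the HT mice and 3571.5, 3747.1, 3413.3 and 3614.8 in the HM mice. WT replicate 1 had the lowest level of both Arntl and Clock among the 12 mice.

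Of the repressors, Per1 ranged from 3381.5 normalized counts in WT replicate 1 to 3984.6 in HT replicate 4, and Per3 from 2458.7 in HM replicate 1 to 2901.3 in WT replicate 2. Per2 had 1807.5, 1964.0, 1978.2 and 2170.4 normalized counts in the WT mice, 1659.0, 1944.4, 2059.1 and 2265.5 in the HT mice and 1768.5, 2092.6, 1829.0 and 1779.0 in the HM mice. Both the lowest and the highest level of Per2 were in HT mice. Ciart, whose product represses the ARNTL and CLOCK pair, had 555.5, 535.3, 478.7 and 474.5 normalized counts in the WT mice, 481.2, 483.8, 489.7 and 548.2 in the HT mice and 382.6, 433.6, 542.5 and 531.4 in the HM mice. It had the widest range of the members, with the highest level 1.45 times the lowest. HM replicates 1 and 2 lay below all other mice, and HM replicates 3 and 4 lay within the WT range.

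The REV-ERB genes and the output genes overlapped between genotypes with 1 exception. Nr1d1 had 3060.2, 3352.1, 2769.5 and 2988.2 normalized counts in the WT mice, 3250.6, 3155.7, 3377.5 and 3528.7 in the HT mice and 3204.8, 3200.5, 3292.8 and 3440.4 in the HM mice. Every mutant mouse lay above 3 of the 4 WT mice for Nr1d1, and WT replicate 2 lay among them. Nr1d2 ranged from 4036.2 in HT replicate 1 to 4691.2 in WT replicate 2. Dbp had 3124.5, 2717.1, 2416.3 and 2848.3 normalized counts in the WT mice, 2651.6, 2728.9, 2834.2 and 2876.6 in the HT mice and 2485.7, 2544.4, 2588.3 and 2813.0 in the HM mice. The highest and the lowest Dbp level were both in WT mice, in replicates 1 and 3. Tef had 14370.7, 14653.4, 14062.1 and 14261.3 normalized counts in the WT mice, 13410.1, 14533.0, 14690.0 and 14760.4 in the HT mice and 12916.8, 13921.7, 13517.4 and 13791.8 in the HM mice. All 4 HM mice lay below all 4 WT mice for Tef.

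**Figure D1:**
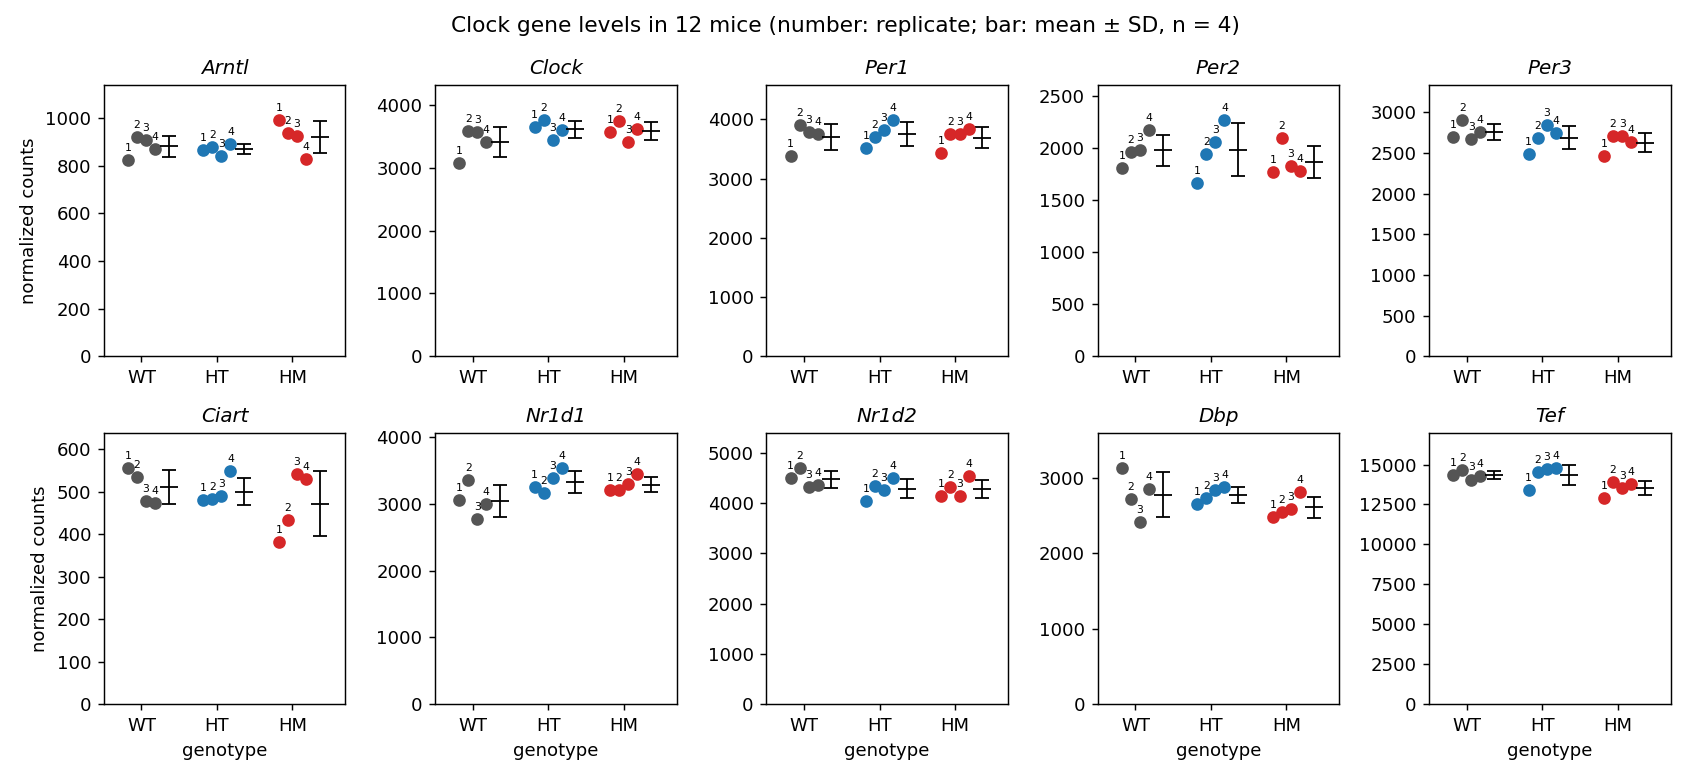
Normalized counts of the 10 clock genes (vertical axes, from 0) in WT, HT and HM mice, with 1 point per mouse, its replicate number above it, and the mean ± SD (n = 4) at the right of each group. The genotypes overlap in every panel except for Tef between WT and HM mice, and the highest level of a gene is between 1.14 times (Tef) and 1.45 times (Ciart) the lowest.

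Spread between mice of 1 genotype was small. The SD within genotypes on the log2(normalized count + 1) scale was 0.049 for Tef, 0.06 for Nr1d2, 0.067 for Per3, 0.075 for Clock, 0.077 for Arntl, 0.08 for Per1, 0.082 for Nr1d1, 0.104 for Dbp, 0.141 for Per2 and 0.163 for Ciart. The 2 extremes correspond to 3.4% and 11.9% of the level. Per2 and Ciart were thus the most variable members. Of the 10 members, 8 lay below the 50th percentile of this SD among all 18006 genes, but this number was 4 among the 9201 genes at least as abundant as Ciart, a set chosen after seeing the data. In that set Ciart stood at the 95.4th, Per2 at the 92.1st and Tef at the 12.9th percentile.

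No clock gene passed the threshold for a difference between genotypes. Tests were made with limma, with Benjamini-Hochberg (BH) adjustment of p over all genes tested. The number of members with an adjusted p under 0.05 was 0 of 10 in HT against WT, HM against WT and HM against HT mice, where 0.00555%, 0.0111% and 0.00556% of all genes passed. An unadjusted p under 0.05 was found for 1 of the 10 members in each comparison, against 6.42%, 6.99% and 3.74% of all genes. HT and HM mice were compared with the same 4 WT mice, so those 2 comparisons are not independent. Nothing in the labels says whether the mice of a genotype came from separate litters.

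In HT against WT mice the member that differed most was Nr1d1, one of the REV-ERB genes, whose log2 fold change was 0.13, with a 95% interval from 0.01 to 0.26 (SE 0.058, unadjusted p = 0.0397 and BH-adjusted p = 0.77 by limma), or 9.5%. Its exact permutation p was 0.114. The log2 fold change of Nr1d1 was 0.14 without WT replicate 1 (limma, unadjusted p = 0.051), 0.087 without WT replicate 3 (limma, unadjusted p = 0.142) and 0.18 without WT replicate 2 (limma, unadjusted p = 0.00563). In HM against WT mice Nr1d1 stood 0.11 higher on the log2 scale (SE 0.055, BH-adjusted p = 0.724 by limma), and 0.069 higher without WT replicate 3 and 0.16 without WT replicate 2. The other REV-ERB gene, Nr1d2, had a log2 fold change of -0.06 in both mutants, and both intervals reached 0.03. The median log2 fold change of the members in HT mice was 0, as was that of all genes, and 5 members were higher and 5 lower than in WT.

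In HM against WT mice the member with the smallest p was Tef, whose log2 fold change was -0.08, with a 95% interval from -0.16 to -0.01 (SE 0.035, unadjusted p = 0.0326 and BH-adjusted p = 0.673 by limma), or -5.6%. The absence of overlap for Tef has an exact permutation p of 0.0286, the smallest that 4 mice against 4 can give, and 1.81% of all genes had every HM mouse below every WT mouse. Beside the differences of HM mice, the summed level of 10 olfactory bulb markers was between 4944.9 and 5808.2 normalized counts in the HM mice, above the 3986.2 to 4803.1 of the WT mice and the 4039.4 to 4473.9 of the HT mice, and its part in these differences was not tested. Dbp, the other PAR-domain gene here, stood at -0.09 on the log2 scale (SE 0.069, BH-adjusted p = 0.825 by limma), and the mice overlapped. Without WT replicate 1 the value of Dbp was -0.027, and without WT replicate 3 it was -0.15 (limma, unadjusted p = 0.0278). The largest difference was that of Ciart, at -0.12 on the log2 scale, whose interval of -0.36 to 0.11 was also the widest. The value of Ciart was -0.028 without HM replicate 1 and -0.20 without HM replicate 3, so its size rests on single mice. With animal-number starts as a block the value of Ciart was -0.022. There HM replicate 3 was set against WT replicate 1, and HM replicate 4 against WT replicate 2. HM replicates 1 and 2, which had the lowest Ciart levels, shared a start with no WT mouse and did not enter this value. Of the 10 members, 3 had a higher and 7 a lower mean log2 level in HM than in WT mice, with a median log2 fold change of -0.07 against 0 over all genes.

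In HM against HT mice Tef again had the smallest p, at -0.08 on the log2 scale (SE 0.038, unadjusted p = 0.0474 and BH-adjusted p = 1 by limma). Here the exact permutation p of Tef was 0.114, and the mice overlapped. Arntl was the 1 member with a higher mean log2 level in HM than in HT mice, by 0.08 (SE 0.059, BH-adjusted p = 1 by limma). Without each mouse in turn the difference of Arntl ran from 0.04 to 0.13. The median over the members was -0.03, against -0.001 over all genes. The other 9 members were lower in HM mice, Nr1d2 by less than the rounding of its value. These signs changed when mice whose animal numbers start alike were treated as a block: Per1, Per3, Nr1d1, Nr1d2, Dbp and Ciart then had fold changes above 0 and Arntl one of -0.08. Tef stayed below 0 with this block, but at -0.018. That fit takes the difference from HM replicate 4 and HT replicates 1 and 2 alone. The 95% intervals of all members lay between -0.19 and 0.26 in HT against WT, between -0.36 and 0.23 in HM against WT, and between -0.32 and 0.21 in HM against HT mice, on the log2 scale.

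**Figure D2:**
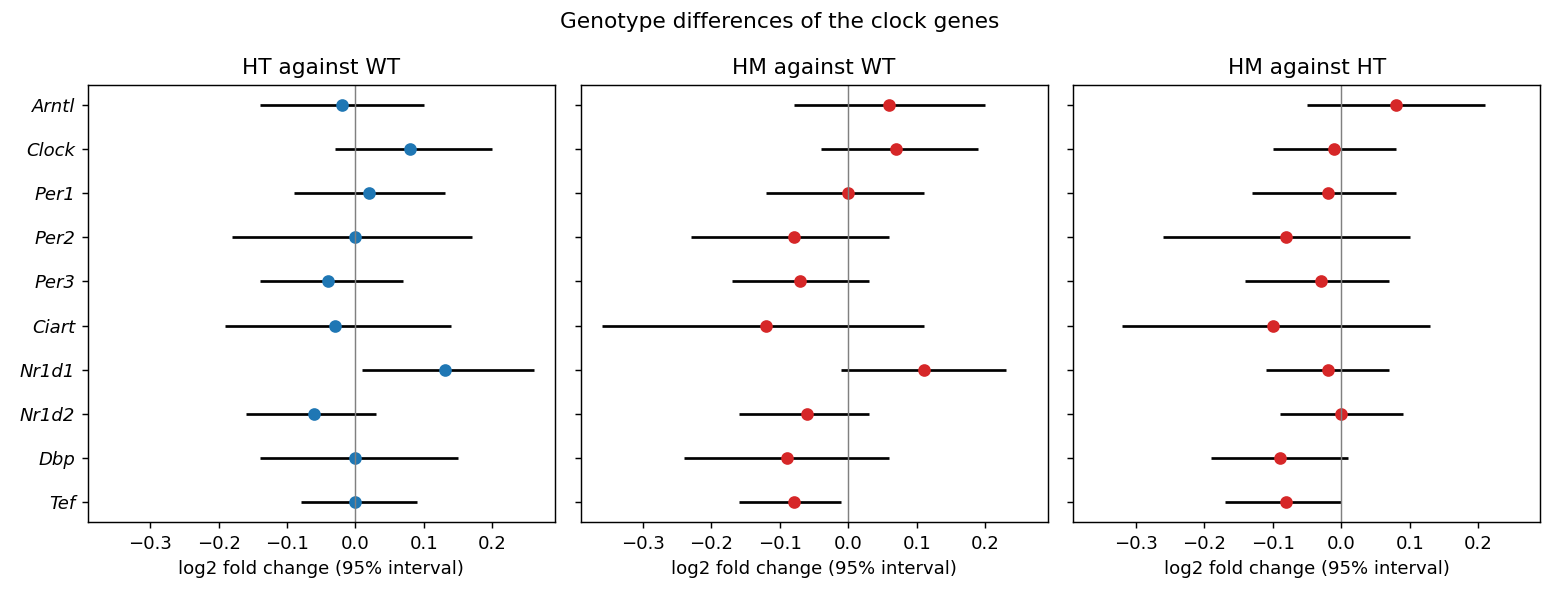
Log2 fold changes of the 10 clock genes (horizontal axis, log2(normalized count + 1) scale) in HT against WT, HM against WT and HM against HT mice, as points with 95% intervals from limma (4 mice per genotype). Most intervals include 0. Those of Nr1d1 in HT against WT (0.01 to 0.26) and of Tef in HM against WT mice (-0.16 to -0.01) do not, that of Tef in HM against HT mice ends at 0 after rounding, and neither gene passed after adjustment over all genes.

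Within genotypes, most pairs of clock genes had a correlation above 0 from mouse to mouse, and no pair passed the adjusted threshold. For each of the 45 pairs of members, Pearson's r was computed over the 12 mice after the mean of its genotype had been subtracted from each log2 level, and tested by a two-sided exact test over the 13824 permutations within genotypes. Of the 45 pairs, 33 had an r above 0 and 12 an r below 0, with a median of 0.41. None passed the threshold after BH adjustment over the 45 pairs (exact permutation test, 0 pairs with an adjusted p under 0.05). An unadjusted p under 0.05 was found for 9 pairs, and the share of all gene pairs at that limit was not computed. The 45 pairs come from 10 genes in the same 12 mice, so they are not independent. An r above 0 was found in 73.3% of the pairs of clock genes and in 49.9% of all pairs of the tested genes (50.5% of pairs of genes as abundant). At the limits of 0.7 and -0.7, chosen after the values were seen, 8.89% of the pairs of clock genes (4 pairs) lay at or above the upper limit, against 1.64% of all pairs of genes and 2.22% of pairs of genes as abundant, and 2.22% (1 pair) lay at or below the lower limit, against 1.59% and 2.01%.

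Grouping by role, made after the values were seen, showed where the negative values lay. Of the 28 pairs among the 8 genes other than Arntl and Clock, 26 had an r above 0, with a median of 0.53 and a range from -0.07 to 0.89. Of the 16 pairs of Arntl or Clock with one of these 8 genes, 10 had an r below 0, with a median of -0.15 and a range from -0.72 to 0.43. After a correction of the libraries for the length and GC content of transcripts, 28 of the 28 and 13 of the 16 pairs had these signs. With animal-number starts as a block, the numbers were 28 of 28 and 8 of 16. The 8 pairs of Arntl had a median of -0.24 and the 8 pairs of Clock one of -0.01. Arntl and Clock themselves had an r of 0.47 (exact permutation p = 0.158). Without each mouse in turn it ran from 0.20, without WT replicate 1, to 0.78.

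**Figure D3:**
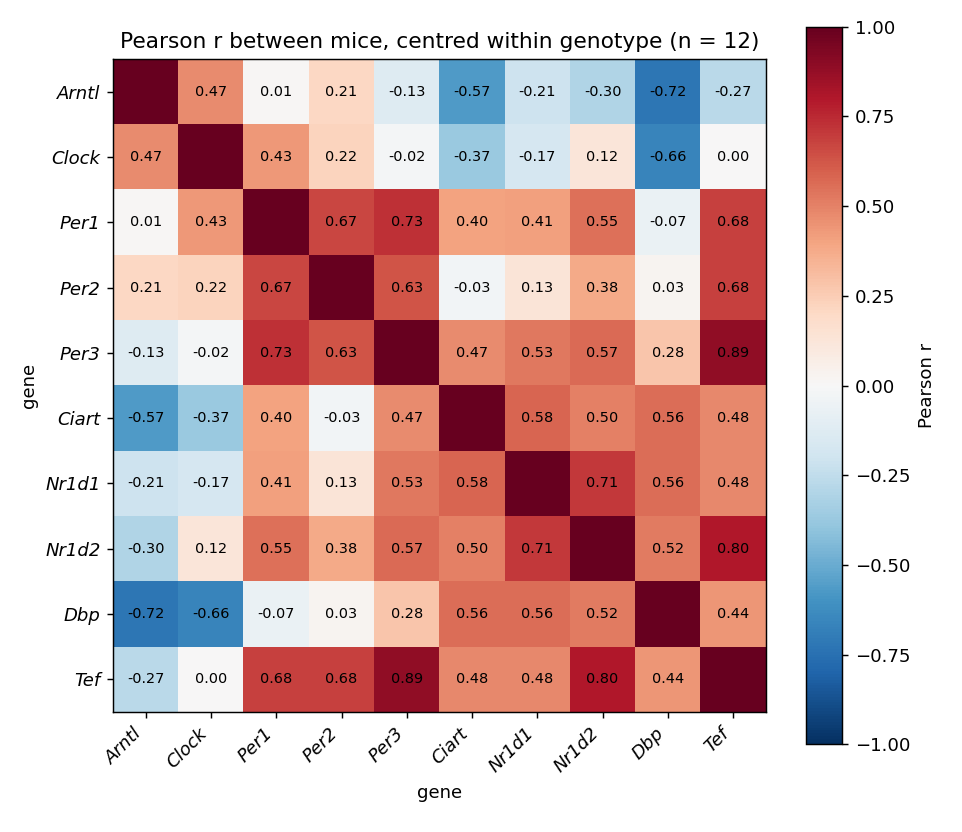
Pearson's r between the log2 levels of each pair of clock genes over 12 mice, centred on the genotype means, with both axes giving the genes and the colour running from -1 (blue) to 1 (red). Negative values lie mainly in the rows of Arntl and Clock, with the lowest at -0.72 for Arntl and Dbp, and the highest is 0.89 for Per3 and Tef.

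The closest pair was Per3 and Tef. Relative to the mean of their genotype, HT replicate 1 was lowest in both, at -0.11 for Per3 and -0.10 for Tef on the log2 scale, followed by HM replicate 1, at -0.09 and -0.07. The HT replicate with the highest Per3, replicate 3, stood at 0.08 for Per3 and 0.03 for Tef. Pearson's r was 0.89 (exact permutation p = 0.00499, BH-adjusted 0.112 over 45 pairs) and Spearman's rho 0.77 (exact permutation p = 0.0106). Without centring, r was 0.84 (permutation p = 3.6e-04 in 100000 resamples), and the adjusted p of 0.0162 made this the 1 pair past the threshold. Without HT replicate 1 and HM replicate 1, which lay most distant from the median of Per3, r was 0.60 (exact permutation p = 0.13), so the strength of the relation rests on those mice.

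Nr1d2 and Tef had an r of 0.80 (exact permutation p = 0.00492, BH-adjusted 0.112) and a rho of 0.76 (exact permutation p = 0.0127). Without HT replicate 1 and HM replicate 4, r was 0.67 (exact permutation p = 0.0266). The 2 REV-ERB genes, Nr1d1 and Nr1d2, which act on the same RORE sites, had an r of 0.71 (exact permutation p = 0.0153, BH-adjusted 0.14) and a rho of 0.59 (exact permutation p = 0.0699). Without centring on genotype their r was 0.17, and the mean of Nr1d1 was higher and that of Nr1d2 lower in both mutants than in WT mice. Without WT replicates 2 and 3 the centred r was 0.61 (exact permutation p = 0.127). Ciart had an r of 0.58 with Nr1d1 (exact permutation p = 0.0184, BH-adjusted 0.14, rho 0.68 with p = 0.0167) and of 0.56 with Dbp (exact permutation p = 0.0448, BH-adjusted 0.224, rho 0.66 with p = 0.04). Leaving out the 2 mice most distant from the median of Nr1d1, or of Dbp, gave 0.67 for Nr1d1 (exact permutation p = 0.0234) and 0.59 for Dbp (exact permutation p = 0.176).

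The Per genes, which encode the repressors of the loop, also had positive correlations, which were lower after a joint correction for transcript length and GC content. Per1 had an r of 0.73 with Per3 (exact permutation p = 0.0187, BH-adjusted 0.14, rho 0.60), of 0.68 with Tef (exact permutation p = 0.027, BH-adjusted 0.17, rho 0.56) and of 0.67 with Per2 (exact permutation p = 0.0302, BH-adjusted 0.17, rho 0.56). The permutation p of rho was 0.0726, 0.0804 and 0.0926 in these pairs (exact). Per1 was lowest in WT replicate 1 and HM replicate 1, and without these 2 mice r was 0.71, 0.84 and 0.65 (exact permutation p = 0.111, 0.0197 and 0.166). With the correction for length and GC content, the 3 values were 0.31, 0.35 and 0.24 (exact permutation p = 0.374, 0.315 and 0.413). With replicate numbers as a block they were 0.22, 0.01 and -0.04. Without WT replicate 1 alone, r of Per1 was 0.81 with Per3, 0.89 with Tef and 0.62 with Per2 (exact permutation p = 0.0145, 0.00434 and 0.105). The level of Per1 itself had an r of 0.66 with the length trend of the libraries (exact permutation p = 0.0479, BH-adjusted 0.567 over 180 relations). The pairs of Tef with Per3 and Nr1d2 were 0.83 and 0.80 under the same correction.

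The 1 pair of opposite direction with an unadjusted p under 0.05 was Arntl and Dbp, an activator and a target of the activators. WT replicate 1, with Arntl at -0.09 relative to its genotype mean on the log2 scale, had Dbp at 0.18, and HM replicate 4, with Arntl at -0.15, had Dbp at 0.11. HM replicate 1 had the highest Arntl, at 0.11, with Dbp at -0.07, and WT replicate 3 the lowest Dbp, at -0.19, with Arntl at 0.05. The 2 genes deviated in opposite directions in 10 of the 12 mice, with HT replicates 1 and 4 as the exceptions. Pearson's r was -0.72 (exact permutation p = 0.0132, BH-adjusted 0.14), Spearman's rho was -0.71 (exact permutation p = 0.0354), and r was -0.77 without centring (permutation p = 0.0033 in 100000 resamples). Without WT replicate 1 and HM replicate 4, which lay most distant from the median of Arntl, r was -0.38 (exact permutation p = 0.351), so the relation rests on those mice. Without WT replicate 1 alone, the library that stood apart in its length trend, r of Arntl and Dbp was -0.63 (exact permutation p = 0.053).

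The other pairs in which opposite levels would be looked for were weaker or not distinguishable from 0 with 12 mice. Clock and Dbp had an r of -0.66 (exact permutation p = 0.104, rho -0.55), which was -0.33 without WT replicate 1. Arntl and Ciart had one of -0.57 (exact permutation p = 0.186, rho -0.42), which was -0.32 without HM replicate 1. Arntl had an r of -0.21 with Nr1d1 (exact permutation p = 0.527) and of -0.30 with Nr1d2 (exact permutation p = 0.401), the genes of its repressors. With the Per genes, the r of Arntl was 0.01 for Per1, 0.21 for Per2 and -0.13 for Per3 (exact permutation p = 0.977, 0.477 and 0.698).

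**Figure D4:**
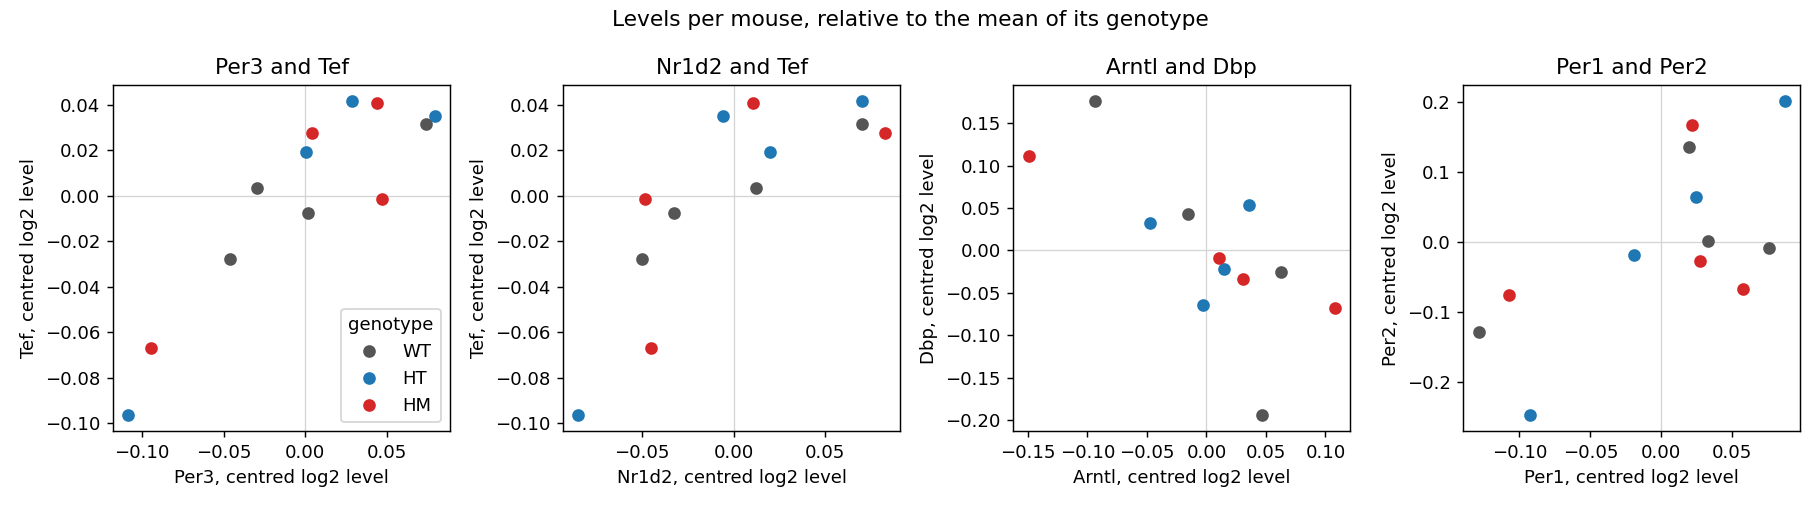
Log2 levels of 4 pairs of clock genes in 12 mice, each relative to the mean of its genotype (both axes), with 1 point per mouse coloured by genotype. Per3 and Tef (r = 0.89), Nr1d2 and Tef (r = 0.80) and Per1 and Per2 (r = 0.67) have positive correlations, and Arntl and Dbp (r = -0.72) a negative one, with WT replicate 1 and HM replicate 4 at the upper left.

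The animal numbers in the column names start with 271, 274, 276 or 278. The labels name no batch, and whether these starts mark one is not known. Over all genes, deviations of mice of different genotypes had a median r of 0.024 in 10 pairs with the same start. In 38 pairs with different starts it was -0.013. With these starts as a block in addition to genotype, r was 0.88 for Per3 and Tef and 0.86 for Nr1d2 and Tef. It was 0.72 for Nr1d1 and Ciart and 0.69 for Nr1d1 and Nr1d2 (permutation p = 0.0613). For Dbp and Ciart it was 0.46 (permutation p = 0.365) and for Arntl and Dbp -0.72 (permutation p = 0.0982). For Per1 it was 0.86 with Per2, 0.85 with Per3 and 0.78 with Tef. With a block p is approximate, because levels were permuted within genotypes without regard to it. Leaving out each mouse in turn kept the sign of all 9 pairs in 12 of 12 fits, with r from 0.81 to 0.92 for Per3 and Tef and from -0.82 to -0.63 for Arntl and Dbp.

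**Figure D5:**
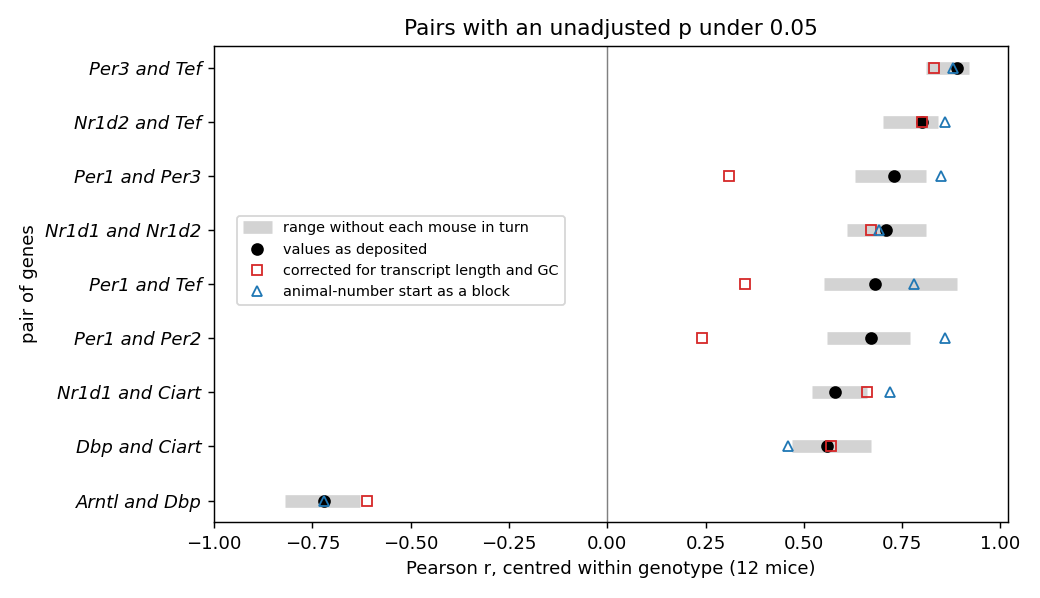
Pearson's r (horizontal axis, centred within genotype, 12 mice) of the 9 pairs with an unadjusted p under 0.05, as deposited (filled circles), after correction for transcript length and GC content (squares), with the animal-number start as a block (triangles), and as a range without each mouse in turn (grey bars). The correction lowers the 3 pairs of Per1, to between 0.24 and 0.35, and the other 6 stay between -0.61 and 0.83 in the same direction.

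Marker lists of other cell types and the library trends were set beside the clock genes. Lists for 16 tissues, cell types and responses and the length and GC trends were each set against the 10 members, giving 180 relations, none of which passed BH adjustment (exact permutation test, lowest BH-adjusted p = 0.303). Clock had the longest transcript of the members, of 9744 bp. Its r was 0.87 with the length trend and -0.78 with the GC trend (exact permutation p = 0.00673 and 0.00615). WT replicate 1 had the lowest length trend (-0.208) and the lowest Clock level (3072.3), and r without it was not computed. Per2, which neuronal activity is known to induce, had an r of 0.78 with the immediate early genes (exact permutation p = 0.00586), whose summed level ran from 13769.3 to 17355.0 normalized counts in the WT mice, from 13183.2 to 18132.4 in the HT mice and from 14517.0 to 24799.0 in the HM mice. Nr1d2 had an r of -0.79 with meningeal markers (exact permutation p = 0.006), which summed to between 4626.4 and 6663.3 normalized counts.

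Beside the opposite levels of Arntl and Dbp, the mean of the cerebellar markers had an r of 0.78 with Dbp (exact permutation p = 0.0242), of -0.66 with Arntl (exact permutation p = 0.0504) and of -0.78 with Clock (exact permutation p = 0.012). Of the 10 cerebellar markers 9 were in the table, none at 0 in any mouse, and they summed to between 7930.2 and 8561.2 normalized counts. The r values used the mean of their centred log2 levels, in which scarce and abundant markers have equal weight. What this mean reflects was not tested. Calb1 had 3328.3 to 4164.7 normalized counts, while Pcp2 (5.5 to 26.4), Cbln3 (12.1 to 24.5) and Barhl1 (19.5 to 59.1) had few. Of these markers, Pcp2 had an r of 0.71 with Dbp, Car8 of 0.61, Pvalb of 0.47, Barhl1 of 0.43 and Cbln1 of 0.35, while Calb1 (0.08), Zic2 (0.06), Zic1 (0.03) and Cbln3 (-0.04) lay near 0. With the mean of the markers as a further term, r was -0.44 for Arntl and Dbp (permutation p = 0.117). It was -0.13 for Clock and Dbp (permutation p = 0.78) and -0.09 for Arntl and Clock (permutation p = 0.786). For Dbp and Ciart it was 0.27 (permutation p = 0.486). Oligodendrocyte markers, which summed to between 146042.0 and 175614.3 normalized counts, had an r of -0.67 with Arntl (exact permutation p = 0.0273), and among them Mbp had an r of -0.79, Cnp of -0.61, Mag of -0.49 and Mog of -0.47 with Arntl. With the mean of these markers as a further term, r of Arntl and Dbp was -0.68 (permutation p = 0.00354). With a marker term p is approximate, as with a block. Markers of the suprachiasmatic nucleus, the seat of the central clock, summed to between 2874.6 and 3228.0 normalized counts over 9 of the 10 listed genes.

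In the fit of every gene on the level of Arntl with genotype as a further term, an adjusted p under 0.05 (BH, by limma) was reached by 0 of the 9 other members and 0 of 18005 genes (0.0%), while 1091 genes (6.06%) had an unadjusted p under 0.05. Of the members, 2 had an unadjusted p under 0.05, both in the opposite direction to Arntl, as did 2.85% of all genes. Dbp had a slope of -0.97 log2 units per log2 unit of Arntl (SE 0.31, limma, unadjusted p = 0.00702, BH-adjusted p = 0.811). For Ciart the slope was -1.19 (SE 0.55, limma, unadjusted p = 0.0485, BH-adjusted p = 0.821), and it was -0.58 without HM replicate 1 (limma, unadjusted p = 0.352) and -0.20 with animal-number starts as a block (limma, unadjusted p = 0.73). In the same fit on Dbp, 0 of the 9 other members passed the adjusted threshold, which 0.00555% of genes passed. Arntl, with a slope of -0.54 (SE 0.23, limma, unadjusted p = 0.0374), and Clock, with -0.47 (SE 0.20, unadjusted p = 0.0297), were the 2 members opposite to Dbp at an unadjusted p under 0.05, against 3.89% of all genes in that direction. By r with Arntl, Dbp ranked 17818 of 18005 genes from the top and Ciart 17095, and Clock ranked 1740.

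Other genes had correlations with Arntl and Dbp farther from 0 than any clock gene. The genes with the highest r with Arntl within genotypes, over 12 mice, were Cers4 (0.95), Padi6 (0.92), P2rx7 (0.91), Gm13416 (0.88) and Gfpt1 (0.88), and those with the lowest were Zfp131 (-0.93), Tph2 (-0.93), Mrpl13 (-0.92), Degs1 (-0.90) and Gm26512 (-0.89). For Dbp the highest were Cast (0.94), Snupn (0.93), Gm42738 (0.93), Bmp2 (0.92) and Bola1 (0.91), and the lowest Gm43662 (-0.96), AI661453 (-0.95), Gm18194 (-0.93), Spink8 (-0.91) and Tep1 (-0.91). These genes were picked as the extremes of 18005 and their values are a description. Padi6, Gm13416, Gm42738, Gm43662 and AI661453 had means under 30 normalized counts.

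The other 22 listed genes of the clock were all in the table, and 0 of 22 passed the adjusted threshold in any of the 3 genotype comparisons or in the fit on Arntl (limma, BH-adjusted p under 0.05). At an unadjusted p under 0.05, 2 of 22 were higher in HM than in WT mice, where 3.93% of all genes were. Btrc, which encodes a subunit of a ubiquitin ligase that acts on PER proteins, was higher in every HM mouse than in every WT mouse, by 0.13 on the log2 scale (SE 0.043, limma, unadjusted p = 0.0104, BH-adjusted p = 0.655), and 2.41% of all genes had every HM mouse above every WT mouse. Npas2, a relative of Clock that also pairs with ARNTL, had 0.16 (SE 0.072, limma, unadjusted p = 0.0464, BH-adjusted p = 0.707). Timeless was higher in HM than in HT mice by 0.36 on the log2 scale (SE 0.145, limma, unadjusted p = 0.0292, BH-adjusted p = 1), and 2.11% of all genes were higher there at an unadjusted p under 0.05. In the fit on Arntl the smallest p of the 22 was that of Npas2, with a slope of 0.68 (SE 0.42, limma, unadjusted p = 0.121), followed by Cry1, the cryptochrome repressor, with -0.73 (SE 0.48, limma, unadjusted p = 0.145). Nampt, Btrc, Tipin, Nfil3, Csnk1e, Usp2 and Cry2 were also among the 10 with the smallest p, with slopes from -0.84 for Tipin to 0.49 for Nfil3 and unadjusted p between 0.245 and 0.535 (limma). Cry2 was among the least variable genes of the table, with a within-genotype SD of 0.027 on the log2 scale, at the 0.3rd percentile of all genes.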

How the data were processed

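Poly-A RNA from the brains of 12 mice was read for 100 bp from both ends. The authors estimated transcript abundance with Salmon 1.1.0 on GRCm38 with GC bias correction, summed it to genes with tximport and divided it by DESeq2 1.30.1 size factors, and deposited this normalized signal. R 4.1.1 stands in the submitters' processing notes. Reads per library were not recovered, so no count model was fitted.

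Values were analysed as log2(normalized count + 1) over genes whose mean reached at least 10, with limma 3.58.1 (trend) in R 4.3.3 and two-sided exact permutation tests (numpy 2.4.6, scipy 1.17.1, Python 3.11.15), at a threshold of 0.05. Each comparison used the 8 mice of its genotypes, and correlations used all 12. With a block or marker term, levels were permuted within genotypes and then adjusted for the term, so those permutation p are approximate. Columns named KO were taken as the HM mice. Positions came from GENCODE M21, in which 19758 of 19775 identifiers had a symbol. Tests were tested on simulated data. The members and gene lists were chosen with earlier results of these data known. Genes named beyond the members were Slc6a20a, the 10 other clock genes with the smallest p in the fit on Arntl (1 of them is not reported here), and the 5 highest and 5 lowest by r with Arntl and with Dbp. Other genes, named beside a count or as markers, were chosen after their values were seen. Alternatives were a pseudocount of 0.1, quantile normalization, no filter, blocks, leaving out each mouse and, chosen after seeing the data, a loess correction (span 0.4) for transcript length and GC content and marker terms.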

Additional observations from a re-analysis of the deposited data

Results flagged for a closer look

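Tef was 13410.1 normalized counts in HT replicate 1, against 14533.0 to 14760.4 in the other 3 HT mice, a gap of 0.832 of the range of the group, just past the limit that the 95% critical value of Dixon's test sets for 4 mice. Ciart was 548.2 normalized counts in HT replicate 4, against 481.2 to 489.7 in the other 3 HT mice, a gap of 0.873 of the range. These were 2 of the 30 groups looked at (10 genes in 3 genotypes), and chance alone is expected to set apart about 1 group in 20.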

How the results depend on the processing

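No alternative brought a clock gene past the adjusted threshold between genotypes or in the fit on Arntl. Over all alternatives the lowest BH-adjusted p (limma) was 0.639 in HT against WT, 0.494 in HM against WT, 0.956 in HM against HT mice and 0.266 in the fit on Arntl. For pairs, uncentred values gave 1 call in place of 0, and the count of members below the 50th percentile of spread was 4 among genes as abundant, in place of 8. The number of pairs with an unadjusted p under 0.05 was 9, and 5 to 13 without each mouse in turn, with 5 without HT replicate 1 and 13 without WT replicate 2 as the extremes. With 4 mice per genotype, the widest interval, that of Ciart in HM against WT mice, reached -0.36 on the log2 scale.

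Signs turned in small differences, and the cause was not tested. Log2 fold changes in HT against WT mice became -0.0011 for Dbp and -0.037 for Tef with quantile normalization, -0.017 for Tef after length and GC correction, and -0.015 for Per1 and 0.012 for Ciart with the animal-number block. With that block Per1 was 0.066 in HM against WT mice. Only mice with the starts 274 and 276 entered that value. In HM against HT mice the block gave 0.091 for Per1, 0.025 for Per3, -0.075 for Arntl, 0.10 for Nr1d1, 0.11 for Nr1d2, 0.065 for Dbp and 0.14 for Ciart. Length and GC correction gave 0.0042 for Nr1d2 there. Slopes on Arntl became 0.0085 for Per3 with the animal-number block, and -0.038 without a genotype term and -0.25 after length and GC correction for Per1.

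Without each mouse in turn, log2 fold changes in HT against WT mice ran from -0.022 to 0.051 for Per1, -0.072 to 0.078 for Per2, -0.050 to 0.0022 for Arntl, -0.061 to 0.062 for Dbp, -0.014 to 0.032 for Tef and -0.072 to 0.013 for Ciart. Per1 ran from -0.046 to 0.033 in HM against WT mice. In HM against HT mice the ranges were -0.054 to 0.012 for Per1, -0.034 to 0.013 for Clock, -0.043 to 0.010 for Nr1d1 and -0.029 to 0.023 for Nr1d2. Slopes on Arntl ran from -0.36 to 0.51 for Per1, -0.25 to 0.19 for Per3, -0.49 to 0.062 for Nr1d1, -0.38 to 0.16 for Nr1d2 and -0.24 to 0.011 for Tef.

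Replicate numbers recur in the 3 genotypes, but over all genes mice with the same number did not deviate together. The correlation of their deviations was between -0.066 and 0.087 in 12 pairs. The best match in another genotype had the same number in 6 of 24 cases. Of the members, Per1 and Per2 were lowest in replicate 1 of each genotype. With a replicate block, 8 of 45 pairs had an unadjusted p under 0.05, of which 4 were among the 9 pairs without it and 4 were not (Clock with Dbp, Tef and Per3, and Dbp with Tef). With this block r was -0.035 for Per1 and Per2, 0.22 for Per1 and Per3 and 0.01 for Per1 and Tef. It was -0.72 for Arntl and Dbp (permutation p = 0.0602) and -0.96 for Clock and Dbp.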
